A study of Mus musculus with 22 samples.

Results

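The genes described here build the replication fork, the set of proteins that opens the DNA double helix and copies both strands. They were taken as the rows of the deposited expression table whose gene symbol equals 1 of 39 names, and all 39 were found among the 11208 genes of the table. They were sorted by role into polymerase alpha-primase (4 genes), polymerase delta (3), polymerase epsilon (4), the sliding clamp and a clamp-bound factor (2), clamp loaders (8), the CMG helicase and its partners (7), Okazaki fragment and RNA primer processing (6), and single-strand binding, helicase and topoisomerase functions (5). Polyadenylated RNA was sequenced from NIH/3T3 cells, an immortalized mouse embryonic fibroblast line. A stable construct that doxycycline switches on encoded the transcription factor E2F1 in one line (the E2F1 line) and was an empty vector in the other (the EV line). Every culture was first held for 48 h in 0.25% serum, which brings fibroblasts to a resting state. There were 11 groups of 2 libraries each. Both lines were sampled at 0, 2, 6 and 12 h of 500 ng/ml doxycycline, and the EV line also 2, 6 and 12 h after a switch to 10% serum. The EV 0 h libraries were taken here as the start of both EV courses, so the doxycycline and the serum comparisons of the EV line share them. The authors' deposited serum tables name a serum 0 h control, and whether it is the same group is not given in the sources used here. The labels do not say whether the replicates came from separate cultures, so p-values measure only the spread between these libraries, which may be technical. Nor do they say whether a line is 1 clone.

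At a fork, the CMG helicase (Cdc45, the MCM ring and the GINS complex) unwinds the parental strands. Polymerase alpha-primase lays down short RNA-DNA primers, polymerase epsilon extends the leading strand, and polymerase delta extends the lagging strand in Okazaki fragments. Clamp loaders place the ring-shaped clamp PCNA around DNA so that the polymerases stay attached, nucleases remove the primers, and a ligase seals the nicks. Resting fibroblasts express many of these genes at lower levels than dividing ones, although some, such as Top2a, had high counts in the 0 h libraries here. E2F transcription factors are textbook activators of many of these genes as cells pass from G1 into S phase.

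The promoter windows of 6 members are printed because they show the E2F letters found in 19 of the 31 members with a window and the places where those letters are lacking. RefSeq promoter windows (build GRCm38.p6, from 250 bases before to 50 bases after each start site) matched 31 of the 39 members. Motifs were searched by letters on both strands. Either of the E2F cores TTCCCGC and TTGGCGC lay in a window of those 19 members (61.3%), against 1287 of 8609 genes of the table with a window (14.95%). The CHR letters TTTGAA, an element known from mitotic genes, lay in 6 members (19.4%), against 14.1% of the 8609 genes. CCAAT boxes (CCAAT) lay in 16 members (51.6% against 44.0%) and GC boxes (GGGCGG) in 22 (71.0% against 72.0%). The motifs can overlap: TTGGCGC after an A holds a CCAAT box on the other strand, and TTCCCGC before CC holds a GC box on the other strand. A match is a description and not a binding site, and the absence of a match says only that these letters are not in the window. Each sequence below runs from 150 bases before to 30 bases after the RefSeq start site, 5′ to 3′ on the strand of the gene. Capitals mark the E2F core in Prim1 (chr10:128015065-128015244, forward strand), Rpa2 (chr4:132768210-132768389, forward strand), Wdhd1 (chr14:47276828-47277007, reverse strand) and Pole4 (chr6:82652845-82653024, reverse strand). In Top2a (chr11:99024160-99024339, reverse strand) they mark 1 CHR and 4 CCAAT matches. Dna2 (chr10:62946879-62947058, forward strand) has no capitals, since none of the 4 kinds of motif lay in its window.
Prim1: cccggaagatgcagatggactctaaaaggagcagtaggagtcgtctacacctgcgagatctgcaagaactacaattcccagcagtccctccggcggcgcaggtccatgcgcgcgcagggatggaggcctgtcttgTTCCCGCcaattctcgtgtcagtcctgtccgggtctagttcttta
Rpa2: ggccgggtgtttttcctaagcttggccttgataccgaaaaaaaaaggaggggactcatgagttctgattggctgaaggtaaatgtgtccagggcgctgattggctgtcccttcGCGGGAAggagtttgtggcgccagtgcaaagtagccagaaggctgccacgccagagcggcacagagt
Wdhd1: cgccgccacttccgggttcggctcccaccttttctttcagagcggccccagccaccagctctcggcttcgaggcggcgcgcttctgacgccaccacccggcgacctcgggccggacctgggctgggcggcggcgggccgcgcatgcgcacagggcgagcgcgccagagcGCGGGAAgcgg
Pole4: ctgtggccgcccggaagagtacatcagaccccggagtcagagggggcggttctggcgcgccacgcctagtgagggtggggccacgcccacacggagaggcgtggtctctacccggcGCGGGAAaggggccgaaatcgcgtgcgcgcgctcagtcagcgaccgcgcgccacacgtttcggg
Top2a: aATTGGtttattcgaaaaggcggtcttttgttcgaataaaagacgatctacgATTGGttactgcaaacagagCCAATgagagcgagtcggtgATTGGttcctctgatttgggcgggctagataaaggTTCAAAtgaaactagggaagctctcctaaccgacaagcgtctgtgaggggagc
Dna2: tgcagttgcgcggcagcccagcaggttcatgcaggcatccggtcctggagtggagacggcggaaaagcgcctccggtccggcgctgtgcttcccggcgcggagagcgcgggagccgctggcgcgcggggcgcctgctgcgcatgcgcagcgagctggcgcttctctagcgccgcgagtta
The E2F core of Prim1 begins 15 bases before the start site on the forward strand of the gene. Those of Rpa2 and Pole4 lie on the other strand, 37 and 34 bases before it, and that of Wdhd1 lies on the other strand at base 20 after it. Pola1 held 4 matches to an E2F core, the most of any member. The matched members with none were Pola2, Pold2, Pcna, Rfc5, Cdc45, Fen1, Dna2, Rnaseh2a, Rnaseh2c, Rpa1, Rtel1 and Top2a. Cdc45 held 2 CHR matches, and across its whole 300-base window Top2a held 2 CHR and 6 CCAAT matches in place of them. The members with no window were Prim2, Pole, Rfc2, Dscc1, Gins1, Gins2, Gins4 and Rnaseh2b.

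Values are normalized counts as deposited, rounded to whole numbers. Library totals of these values lay between 34014608 and 46057140. All pairs of values below are replicates 1 and 2 in that order. All fold changes below compare log2(value + 1), so those of low genes are understated. E2f1 itself, the check of the construct, went in that line from 1703 and 1637 at 0 h over 1535 and 1755 at 2 h, which was no called change (-0.02, adjusted p 0.946), to 3806 and 3602 at 6 h and 2683 and 2845 at 12 h, although a construct with another coding sequence need not be counted under the mouse gene. After 12 h of serum the EV line had 4615 and 4247, above every library of the E2F1 line. All 12 fibroblast markers sought were in the table, and of 19 markers of leukocytes, epithelium, endothelium and muscle only Csf1r was, at 33 to 735 normalized counts. The lowest mean of any gene in the table over all libraries was 99.6, so a missing marker may still be expressed at a low level. Shares of all genes are shares of the genes in this table. Some libraries stand apart. The EV 0 h libraries differ in the fork genes: replicate 2 lay above replicate 1 in 38 of 39, with a median log2 difference (replicate 1 minus 2) of -0.44, while the median absolute difference over all genes was 0.146. Other pairs were also shifted: replicate 2 lay above replicate 1 in 37 members at 6 h (median -0.26) and in 30 at 12 h (-0.20) of doxycycline in the EV line. Replicate 1 lay above replicate 2 in 32 members at 2 h of doxycycline in the EV line (0.13), in 35 at E2F1 0 h (0.15) and in 33 at 12 h of serum (0.13). Besides, 7 genes were at least 8-fold apart between the lines in the 0, 6 and 12 h doxycycline libraries. On a scale where the EV line is at 0 and the E2F1 line at 0 h is at 1, their median position in the E2F1 2 h libraries was 0.588 and 0.564, and in the EV 2 h doxycycline libraries 0.144 and 0.109, so the results at 2 h of doxycycline rest on libraries that stand between the lines. In the 2 h serum libraries the medians were 0.0424 and 0.042, with single genes up to 2.18. Ddx3y, which separates the lines at 0 h (580 and 521 in the E2F1 line, 9 and 4 in the EV line), had 132 and 170 at 2 h of serum. In the EV 2 h doxycycline libraries Ddx3y had 103 and 71. Results that move without 1 library are given with that value below, and the part of the line marker differences in the results was not tested beyond leaving out both 2 h doxycycline groups.

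At 6 h of E2F1 induction nearly all the fork genes rose, and at 12 h the median rise was larger. Tests were made with limma across all genes, and a gene was called changed at an adjusted p under 0.05. At 6 h, 36 of 39 members rose and 0 fell, where 28.8% of all genes rose and 22.9% fell. The members' median log2 change was 1.08, against -0.03 over all genes. At 12 h, 38 rose and 0 fell (all genes: 31.8% and 29.7%), with a median of 1.64 against -0.02. At an unadjusted p under 0.05 the counts of members that were lower stayed at 0 at both times. The members that missed the threshold at 6 h were Pole3 (-0.15), Pclaf (0.24) and Rnaseh2c (0.14), and at 12 h it was Gins2 (0.31). With quantile normalization or scaling to equal totals, which shift the median of all genes at 6 h by -0.11 and -0.12, Pole3 was called lower (-0.35 and -0.27), and the members' median was 0.98 and 0.96. Leaving out single libraries kept 30 to 34 calls at 6 h and 37 to 38 at 12 h. The 6 h calls lost in 1 or more of these fits were those of Chtf18, Gins2, Gins4, Pold2, Rnaseh2b and Top2a, and the 12 h call lost was that of Rnaseh2a. At 2 h, 1 member rose and 0 fell (all genes: 0.865% and 0.99%), and 5 were higher and 0 lower at an unadjusted p under 0.05. The member that rose was Dna2.

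Together the 39 genes took 0.186% and 0.168% of all normalized counts in the E2F1 libraries at 0 h and 0.582% and 0.594% at 12 h. In the EV line their share was 0.113% and 0.154% at 0 h, 0.0822% and 0.0911% after 12 h of doxycycline and 0.41% and 0.354% after 12 h of serum. The EV 12 h doxycycline shares lie below those at 0 h, and the 12 h serum shares lie above them, with no overlap. Top2a weighs heavily in these sums. It held 64589 and 63370 of the members' 205603 and 212103 normalized counts at 12 h of E2F1. At 12 h of serum it held 23081 and 18575 of 151419 and 132474. The shares therefore do not compare a typical member between E2F1 and serum, for which the median difference in log2 change at 12 h was -0.18. In bulk RNA, a change in the number of cells that express a gene and a change in RNA per cell cannot be told apart.

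**Figure D1:**
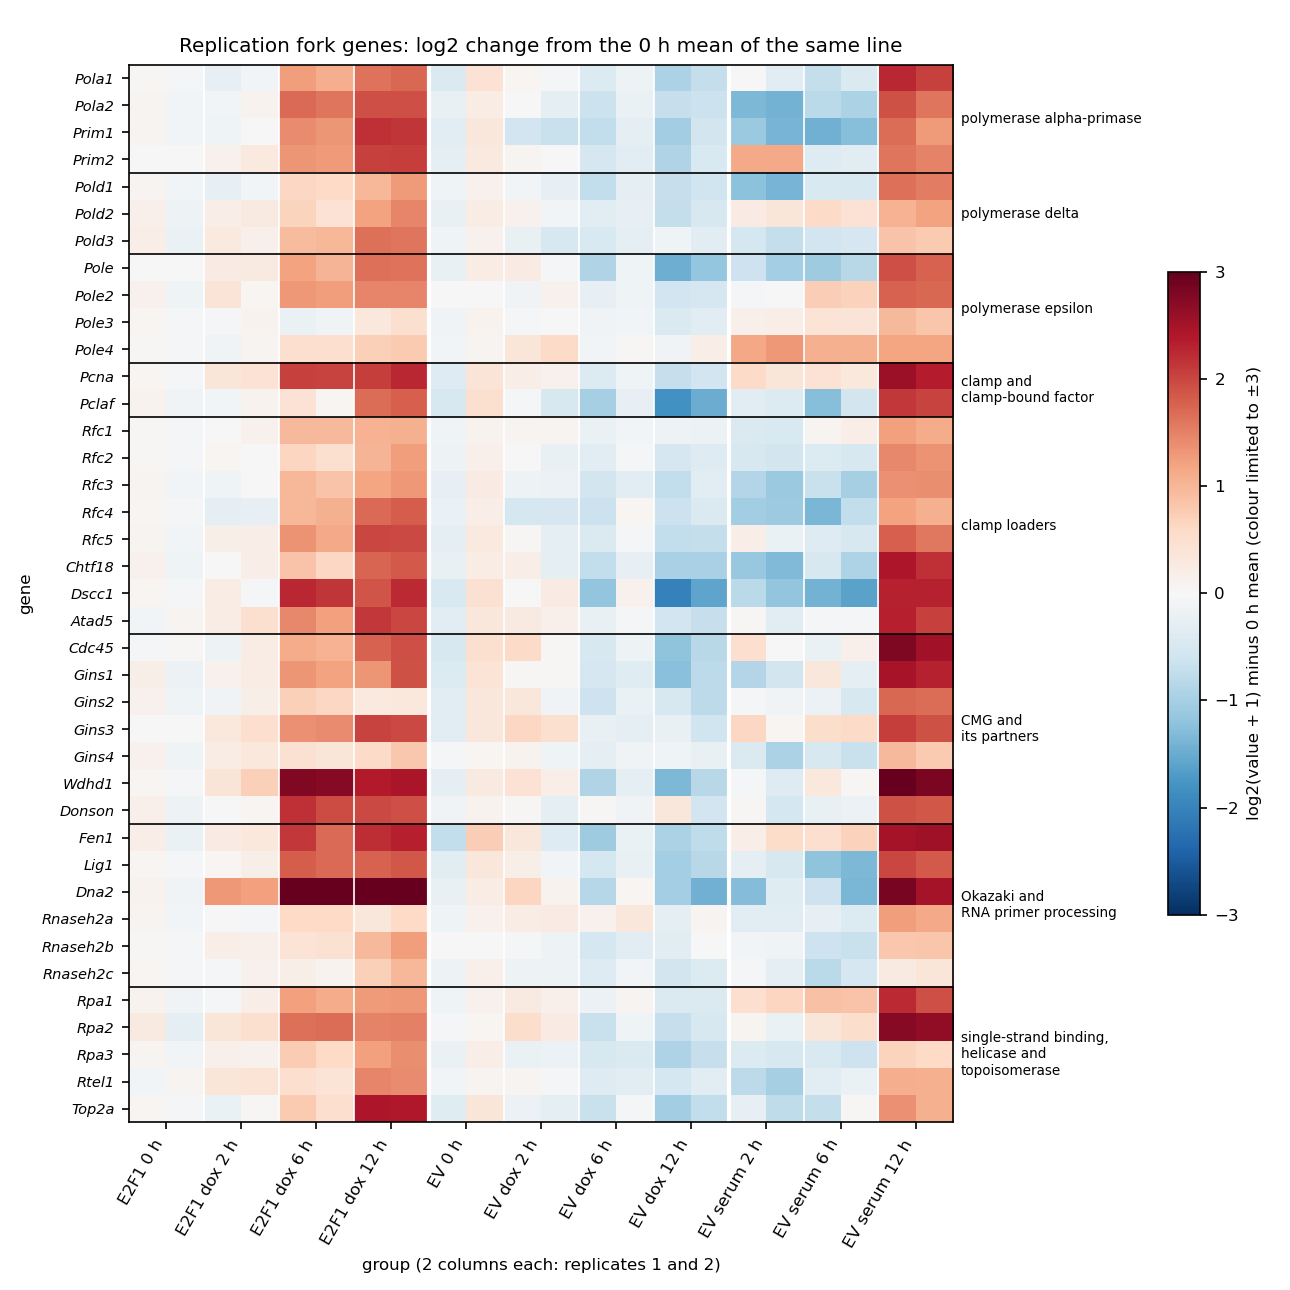
Log2 change of each fork gene (rows, by role) in each library (columns, replicates 1 and 2 of the 11 groups) from the 0 h mean of the same line, with red above and blue below that mean. The E2F1 6 h and 12 h columns and the serum 12 h columns are red in nearly every row, the EV 0 h replicates differ in shade, and the EV 12 h doxycycline columns are mostly blue.

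The control for doxycycline itself was the EV line. It showed no rise of the fork genes at 6 or 12 h but a fall at 12 h. At 6 h limma called 0 members higher and 0 lower (all genes: 0.134% and 0%), and at an unadjusted p under 0.05 the counts were 0 and 15. The median was -0.35, and 38 of 39 estimates were negative. Without EV 0 h replicate 2 that median was -0.08 with 27 negative estimates, and without replicate 1 it was -0.62 with 38. At 12 h, 25 members fell and 0 rose (all genes: 3.42% and 0.749%), with a median of -0.63 against a median of all genes within 0.01 of no change. At 2 h 1 member, Pole4, rose and 0 fell (all genes: 4.93% and 2.43%), and 3 were higher and 3 lower at an unadjusted p under 0.05. The 12 h fall rests on the EV 0 h libraries: without replicate 2 of that group no member was called lower (median -0.37), and without replicate 1 there were 29 (median -0.89). Without replicate 1 of the EV 12 h doxycycline group 2 members were called lower.

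**Figure D2:**
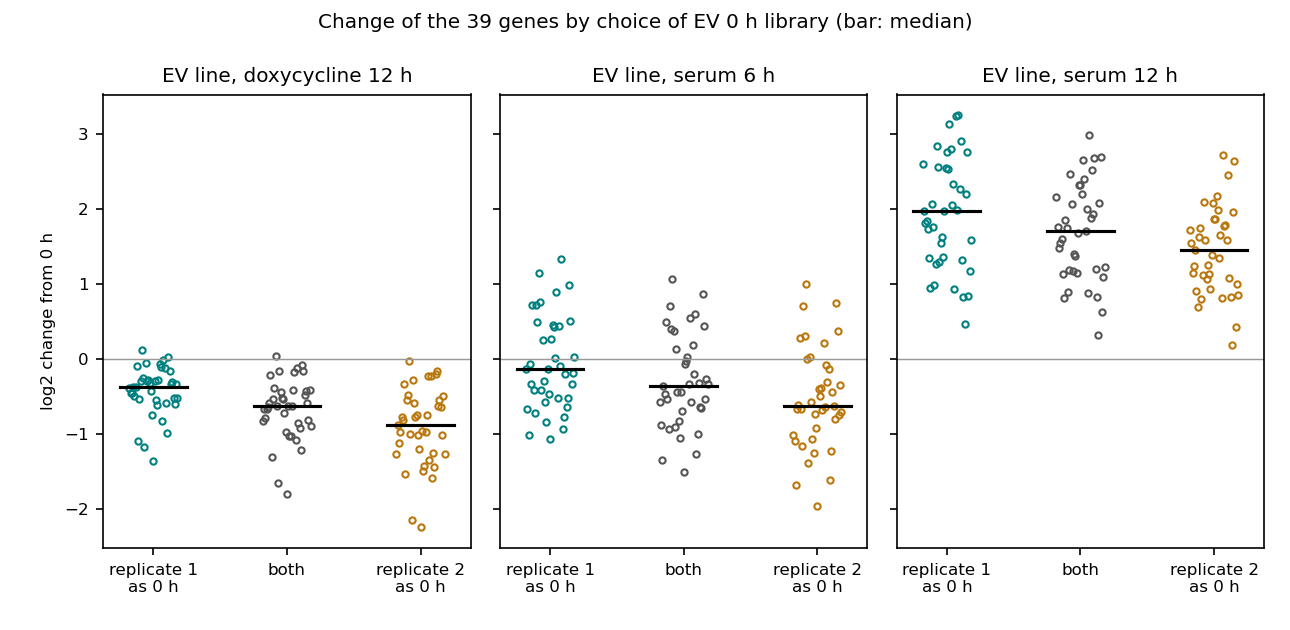
Log2 change from 0 h of the 39 genes (points; bar, median) in 3 EV groups, with EV 0 h replicate 1, both replicates or replicate 2 as the 0 h level. The medians for 12 h of doxycycline are -0.37, -0.63 and -0.89 and those for 6 h of serum are -0.14, -0.37 and -0.64, while those for 12 h of serum stay between 1.46 and 1.97.

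The difference between the lines' doxycycline responses was tested as an interaction. At 6 h it was positive for 35 members and negative for 0 (all genes: 22.2% and 12.3%), with a median of 1.36. At 12 h the counts were 39 and 0 (all genes: 27.3% and 23.3%), with a median of 2.29 against -0.02 over all genes. At 2 h limma called 0 and 0 members (all genes: 0.0535% and 0.0892%), and 2 and 1 at an unadjusted p under 0.05. Leaving out single libraries gave 32 to 36 positive calls at 6 h (those of Gins2, Gins4 and Top2a could be lost) and 37 to 39 at 12 h (Gins2 and Rnaseh2a). Quantile normalization shifted the median of all genes by -0.10 at 6 h and -0.12 at 12 h here, and the members' medians were then 1.29 and 2.22. At 0 h the lines already differed: 12 members were higher in the E2F1 line and 0 lower (all genes: 8.86% and 6.17%), with a median of 0.37. The largest of these differences was Wdhd1 at 0.95 (SE of 0.21, adjusted p 0.00625), and Cdc45 followed at 0.89 (adjusted p 0.0268). That count was 1 without EV 0 h replicate 1, 17 without EV 0 h replicate 2, 2 without E2F1 0 h replicate 1 and 5 without E2F1 0 h replicate 2.

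Serum gave another course: a fall of part of the members at 2 and 6 h, whose extent rests on 1 EV 0 h library, then a rise of every member at 12 h. At 2 h, 4 members rose and 18 fell (all genes: 37.5% and 33.5%), with a median of -0.34 against 0.03. At 6 h, 8 rose and 21 fell (all genes: 36.5% and 31%), with a median of -0.37 against 0.03. At 12 h, 39 rose and 0 fell (all genes: 36% and 29.7%), with a median of 1.70 against 0.05. The 12 h rises ran from 0.32 for Rnaseh2c to 2.98 for Wdhd1. Against the time-matched EV doxycycline libraries, which avoids the 0 h libraries, 39 members were higher and 0 lower after 12 h of serum (all genes: 37.9% and 32.5%), with a median of 2.29. Without EV 0 h replicate 2, 9 members rose and 12 fell at 2 h (median -0.10), and 9 rose and 12 fell at 6 h (median -0.14). The falls were then 30.8% of the members at each time, near the 30.7% and 27.5% of all genes that fell in the same fit. Without replicate 1, 22 fell at 2 h (median -0.55) and 24 at 6 h (median -0.64). Leaving out 1 library could end the 2 h calls of Dna2, Dscc1, Gins1, Lig1, Pcna, Rnaseh2a and Rpa3. At 6 h it could end those of Chtf18, Dna2, Gins3, Pclaf, Pcna, Pola1, Pold1, Pold2, Rfc2, Rfc5, Rnaseh2a, Rpa2 and Rtel1, and at 12 h that of Rnaseh2c. Scaling to equal totals moved the median of all genes at 2 h of serum by -0.37 and at 6 h by -0.21, and the members' medians moved with it to -0.72 and -0.58. With quantile normalization the members' medians were -0.10 at 2 h and -0.29 at 6 h, and 7 calls ended at each time.

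Polymerase alpha-primase, the only fork polymerase that starts strands, rose as a whole after E2F1 induction, with all 4 members called at 6 h and at 12 h. Pola1, its catalytic subunit (ENSMUSG00000006678.6, chrX:93304767-93632155, reverse strand), was measured as follows. Pola1 had 1429 and 1368 normalized counts at 0 h of the E2F1 line, 1177 and 1329 at 2 h, 3343 and 3001 at 6 h, and 4342 and 4584 at 12 h. Pola1 in the EV line had 623 and 1151 at 0 h, and 886 and 809, 637 and 759, and 438 and 519 after 2, 6 and 12 h of doxycycline. With serum, Pola1 had 836 and 679 at 2 h, 513 and 625 at 6 h and 4091 and 3495 at 12 h. The E2F1 6 and 12 h libraries lay above all 0 and 2 h libraries, both EV 12 h doxycycline libraries lay below both at 0 h, and the 12 h serum libraries stood above every other EV library. The log2 change was 1.18 (SE of 0.20, adjusted p 7.66e-05) at 6 h and 1.67 (SE of 0.20, adjusted p 9.42e-07) at 12 h of E2F1, and 2.16 (SE of 0.20, adjusted p 3.63e-08) at 12 h of serum. Pola2, the accessory subunit, rose by 1.65 and 1.93 on the log2 scale at 6 and 12 h of E2F1. Prim1, the catalytic primase subunit, rose by 1.38 and 2.17, the latter a 4.51-fold change. Prim2, the large primase subunit, rose by 1.30 and 2.06.

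The primase subunits parted at 2 h of serum. Prim2 had 399 and 607 normalized counts at EV 0 h and 1080 and 1083 at 2 h of serum, which is 1.13 (SE of 0.16, adjusted p 4.74e-06) on the log2 scale. At 6 h it was at 376 and 387, below both 0 h libraries. Prim1 went from 1013 and 1613 to 594 and 484, a change of -1.25 (SE of 0.20, adjusted p 1.98e-05), and stayed low at 6 h with 469 and 531. The 2 h serum libraries of Prim2 lie above both EV 0 h libraries and those of Prim1 lie below both. Pola2 fell by a similar size at 2 h of serum (-1.38, adjusted p 1.17e-07), and Pola1 was at -0.17 (adjusted p 0.457).

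Polymerase delta, which copies the lagging strand, rose less, with all 3 members called at both times of E2F1. Pold1, the catalytic subunit (ENSMUSG00000038644.14, chr7:44532746-44548849, reverse strand), was lowest at 2 h of serum. Pold1 had 1632 and 1471 normalized counts at 0 h of the E2F1 line, 1311 and 1457 at 2 h, 2401 and 2352 at 6 h, and 3092 and 3784 at 12 h. Pold1 in the EV line had 1173 and 1419 at 0 h, and 1214 and 1092, 778 and 1050, and 804 and 852 after 2, 6 and 12 h of doxycycline. With serum, Pold1 had 552 and 488 at 2 h, 938 and 919 at 6 h and 4053 and 3740 at 12 h. Both E2F1 6 h libraries and both 12 h libraries lay above every 0 and 2 h library of that line. The log2 changes were 0.62 (SE of 0.13, adjusted p 0.000939) and 1.14 (SE of 0.13, adjusted p 9.1e-07) at 6 and 12 h of E2F1, -1.31 (SE of 0.13, adjusted p 7.42e-08) at 2 h of serum and 1.59 (SE of 0.13, adjusted p 1.3e-08) at 12 h. Among the accessory subunits, Pold2 rose by 0.56 and 1.35 at 6 and 12 h of E2F1 and Pold3 by 0.97 and 1.63. Pold2 rose by 0.50 already at 6 h of serum, when Pold1 fell by 0.47 and Pold3 by 0.54.

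The subunits of polymerase epsilon, the leading-strand polymerase, did not move together. Pole is its catalytic subunit (ENSMUSG00000007080.14, chr5:110286306-110337474, forward strand) and Pole2 its second subunit, while Pole3 (ENSMUSG00000028394.9, chr4:62522649-62525068, reverse strand) and Pole4 form a histone-fold pair. Pole had 1472 and 1430 normalized counts at 0 h of the E2F1 line, 1710 and 1756 at 2 h, 3338 and 2960 at 6 h, and 4586 and 4471 at 12 h. Pole in the EV line had 828 and 1123 at 0 h, and 1142 and 948, 514 and 876, and 346 and 432 after 2, 6 and 12 h of doxycycline. With serum, Pole had 625 and 477 at 2 h, 462 and 544 at 6 h and 3660 and 3303 at 12 h. Pole, like Pola1, rose at 6 and 12 h of E2F1 and at 12 h of serum. At 2 h of serum Pole fell (-0.82), while Pola1 was not called. The EV 12 h doxycycline libraries of Pole were the lowest of all 22. Its log2 change was 1.11 (SE of 0.20, adjusted p 0.00014) at 6 h and 1.64 (SE of 0.20, adjusted p 1.25e-06) at 12 h of E2F1, and -1.32 (SE of 0.20, adjusted p 0.00158) after 12 h of doxycycline in the EV line. Pole3 stood apart with 2809 and 2606 normalized counts at 0 h of the E2F1 line, 2659 and 2889 at 2 h, 2357 and 2511 at 6 h, and 3375 and 3798 at 12 h. Pole3 in the EV line had 2307 and 2628 at 0 h, and 2413 and 2499, 2287 and 2319, and 1809 and 1953 after 2, 6 and 12 h of doxycycline. With serum, Pole3 had 2733 and 2836 at 2 h, 3283 and 3217 at 6 h and 4798 and 4351 at 12 h. Both E2F1 6 h values lie below both at 0 h, although the change of -0.15 (SE of 0.09, adjusted p 0.146) did not pass the test, and the serum values climb at each time. Pole3 rose by 0.40 at 12 h of E2F1, by 0.40 at 6 h and by 0.89 at 12 h of serum. Pole4 reached 3062 and 3333 at 2 h of serum from 1292 and 1432 at 0 h, a change of 1.23 (SE of 0.10, adjusted p 4.1e-09), and stayed there with 1.07 (adjusted p 4.18e-08) at 6 h and 1.19 (adjusted p 1.58e-08) at 12 h. In the E2F1 line Pole4 rose by 0.51 and 0.75, and Pole2 by 1.27 and 1.46.

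Pcna, the sliding clamp (ENSMUSG00000027342.14, chr2:132249162-132253314, reverse strand), had by 6 h of E2F1 nearly all of its rise, and Pclaf, a small clamp-bound factor (ENSMUSG00000040204.6, chr9:65890237-65903266, forward strand), had nearly none. Pcna had 3794 and 3458 normalized counts at 0 h of the E2F1 line, 4625 and 4883 at 2 h, 15075 and 14869 at 6 h, and 15233 and 17240 at 12 h. Pcna in the EV line had 1939 and 3272 at 0 h, and 2912 and 2750, 1882 and 2293, and 1572 and 1681 after 2, 6 and 12 h of doxycycline. With serum, Pcna had 3766 and 3234 at 2 h, 3388 and 3154 at 6 h and 14924 and 12962 at 12 h. The E2F1 6 and 12 h ranges lie far above those at 0 and 2 h, and the 12 h serum libraries reach a similar level. The log2 change of Pcna was 2.05 (SE of 0.16, adjusted p 8.06e-09) at 6 h, 2.16 (SE of 0.16, adjusted p 3.53e-09) at 12 h of E2F1 and 2.46 (SE of 0.16, adjusted p 6.77e-10) at 12 h of serum. Named pseudogenes of Pcna exist (Pcna-ps1 and Pcna-ps2), so reads could be shared with them. Pclaf had 2494 and 2143 normalized counts at 0 h of the E2F1 line, 2184 and 2474 at 2 h, 3100 and 2412 at 6 h, and 7332 and 8038 at 12 h. Pclaf in the EV line had 1156 and 2272 at 0 h, and 1594 and 1166, 810 and 1358, and 457 and 574 after 2, 6 and 12 h of doxycycline. With serum, Pclaf had 1304 and 1218 at 2 h, 669 and 1110 at 6 h and 7007 and 6572 at 12 h. Pclaf at 6 h of E2F1 overlapped its 0 h range, and its 12 h libraries lay above all others of the line. Its change was 0.24 (SE of 0.28, adjusted p 0.479) at 6 h and 1.73 (SE of 0.28, adjusted p 3.01e-05) at 12 h of E2F1. In the EV line it was -1.66 (SE of 0.28, adjusted p 0.00298) after 12 h of doxycycline, -0.91 (adjusted p 0.00733) at 6 h and 2.07 (adjusted p 3.63e-06) at 12 h of serum.

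All 8 clamp loader genes rose at 6 h and at 12 h of E2F1. Rfc1 is the large subunit of the canonical loader (ENSMUSG00000029191.16, chr5:65261850-65335670, reverse strand). Rfc1 had 3159 and 3024 normalized counts at 0 h of the E2F1 line, 3087 and 3396 at 2 h, 6071 and 6040 at 6 h, and 6414 and 6499 at 12 h. Rfc1 in the EV line had 2339 and 2736 at 0 h, and 2676 and 2657, 2205 and 2378, and 2275 and 2229 after 2, 6 and 12 h of doxycycline. With serum, Rfc1 had 1885 and 1842 at 2 h, 2664 and 2882 at 6 h and 5981 and 5456 at 12 h. The E2F1 6 and 12 h libraries were close to each other and far above the 0 h range, and doxycycline left the EV values inside or just below their 0 h range. Rfc1 changed by 0.97 (SE of 0.08, adjusted p 2.04e-08) and 1.06 (SE of 0.08, adjusted p 5.32e-09) at 6 and 12 h of E2F1, and by 1.17 (SE of 0.08, adjusted p 1.44e-09) at 12 h of serum. The small subunits Rfc2 to Rfc5 rose by 0.56 to 1.24 at 6 h and by 1.13 to 1.98 at 12 h, with Rfc2 lowest and Rfc5 highest at both times. Genes on the other strand overlap 15.1% of the exon bases of Rfc2, 12.7% of Rfc4 and 10.7% of Rfc5, and the use of strand in counting is not stated.

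Dscc1 and Chtf18, subunits of an alternative loader that acts in sister chromatid cohesion, and Atad5, which takes the clamp off DNA, rose with them. Dscc1 (ENSMUSG00000022422.13, chr15:55076099-55090491, reverse strand) had low counts throughout. Dscc1 had 205 and 191 normalized counts at 0 h of the E2F1 line, 230 and 194 at 2 h, 957 and 872 at 6 h, and 737 and 936 at 12 h. Dscc1 in the EV line had 89 and 166 at 0 h, and 121 and 144, 53 and 134, and 29 and 40 after 2, 6 and 12 h of doxycycline. With serum, Dscc1 had 69 and 53 at 2 h, 45 and 39 at 6 h and 609 and 610 at 12 h. Its E2F1 6 h libraries lay above all earlier ones, and its EV 12 h doxycycline and 6 h serum libraries were the lowest, all below both EV 0 h libraries. The changes were 2.20 (SE of 0.34, adjusted p 3.46e-05) at 6 h and 2.06 (SE of 0.34, adjusted p 4.59e-05) at 12 h of E2F1, -1.81 (SE of 0.34, adjusted p 0.00602) at 12 h of doxycycline in the EV line and 2.32 (SE of 0.34, adjusted p 1.14e-05) at 12 h of serum. Chtf18 rose by 0.74 and 1.79 and Atad5 by 1.34 and 2.06 at 6 and 12 h of E2F1. The 6 h call of Chtf18 was lost without E2F1 0 h replicate 2 (adjusted p 0.0575) or E2F1 6 h replicate 1 (0.0552).

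**Figure D3:**
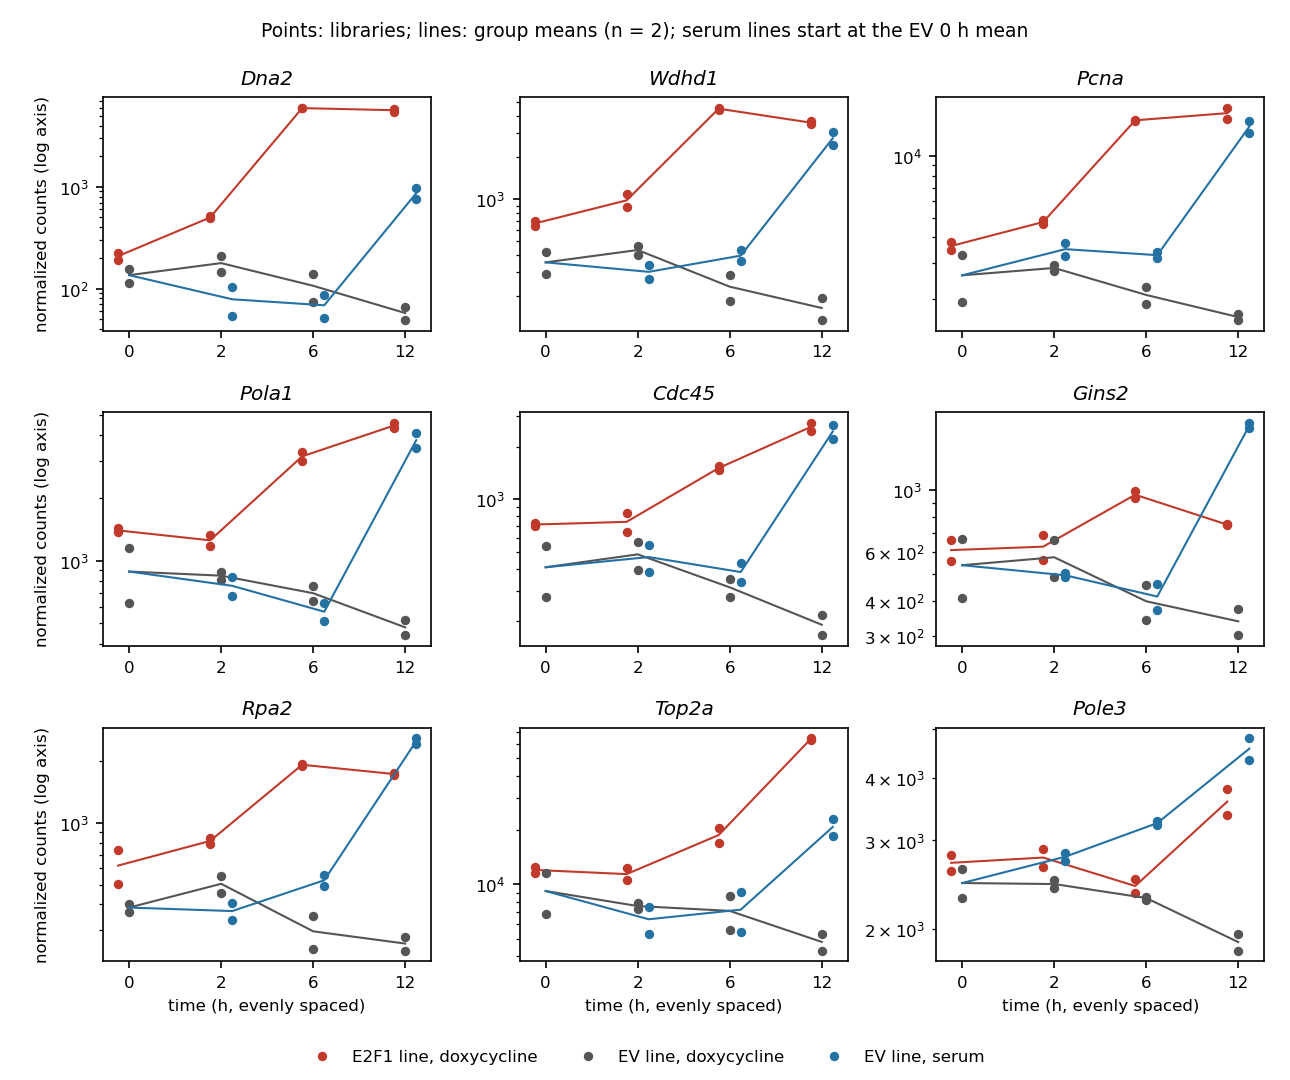
Normalized counts (log axis) of 9 fork genes against time (h), with points for libraries and lines through the means of 2 libraries, in red for the E2F1 line, grey for the EV line with doxycycline and blue for the EV line with serum. Dna2, Wdhd1 and Pcna reach their level in the E2F1 line by 6 h, Top2a goes from 20623 and 16950 at 6 h to 64589 and 63370 at 12 h, and Gins2 is higher at 12 h of serum than in any E2F1 library.

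Among the CMG helicase genes and their partners, all 7 rose at 6 h of E2F1 and 6 of 7 at 12 h. Cdc45, which joins the MCM ring and GINS in the helicase (ENSMUSG00000000028.15, chr16:18780447-18811987, reverse strand), rose by 6 h and again by 12 h. Cdc45 had 701 and 734 normalized counts at 0 h of the E2F1 line, 650 and 837 at 2 h, 1550 and 1477 at 6 h, and 2464 and 2742 at 12 h. Cdc45 in the EV line had 277 and 539 at 0 h, and 573 and 395, 276 and 350, and 166 and 216 after 2, 6 and 12 h of doxycycline. With serum, Cdc45 had 549 and 385 at 2 h, 337 and 429 at 6 h and 2682 and 2225 at 12 h. Each E2F1 time from 6 h on lies above the one before it, and the EV line shows its high values at 12 h of serum alone. Cdc45 changed by 1.08 (SE of 0.26, adjusted p 0.00201) at 6 h and 1.86 (SE of 0.26, adjusted p 6.24e-06) at 12 h of E2F1, and by 2.66 (SE of 0.26, adjusted p 7.27e-08) at 12 h of serum. Wdhd1, which tethers polymerase alpha to the helicase (ENSMUSG00000037572.17, chr14:47240944-47276857, reverse strand), had the largest rise at 6 h after Dna2. Wdhd1 had 695 and 644 normalized counts at 0 h of the E2F1 line, 874 and 1092 at 2 h, 4556 and 4425 at 6 h, and 3487 and 3641 at 12 h. Wdhd1 in the EV line had 289 and 414 at 0 h, and 464 and 399, 186 and 284, and 135 and 195 after 2, 6 and 12 h of doxycycline. With serum, Wdhd1 had 335 and 266 at 2 h, 429 and 357 at 6 h and 3036 and 2468 at 12 h. Its 6 h libraries lie above its 12 h libraries in the E2F1 line, and both lie far above 0 h. The change was 2.74 (SE of 0.21, adjusted p 6.72e-09) at 6 h, 2.41 (SE of 0.21, adjusted p 2.72e-08) at 12 h of E2F1, and 2.98 (SE of 0.21, adjusted p 1.82e-09) at 12 h of serum, the largest serum rise among the members. Donson, a factor in helicase assembly, rose by 2.07 and 1.95 at 6 and 12 h of E2F1.

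The GINS subunits, the small 4-part ring that holds Cdc45 to the MCM ring, rose unequally. Gins3 rose by 1.39 and 2.00 at 6 and 12 h of E2F1, Gins1 by 1.26 and 1.61, and Gins4 by 0.40 and 0.69. Gins2 (ENSMUSG00000031821.11, chr8:120578633-120589304, reverse strand) behaved otherwise. Gins2 had 663 and 557 normalized counts at 0 h of the E2F1 line, 564 and 691 at 2 h, 990 and 936 at 6 h, and 749 and 756 at 12 h. Gins2 in the EV line had 410 and 667 at 0 h, and 661 and 489, 342 and 458, and 376 and 302 after 2, 6 and 12 h of doxycycline. With serum, Gins2 had 504 and 487 at 2 h, 460 and 372 at 6 h and 1739 and 1665 at 12 h. The E2F1 12 h libraries lie between those of 0 h and 6 h, and the 12 h serum libraries lie above every library of the E2F1 line. Its change was 0.66 (SE of 0.21, adjusted p 0.0122) at 6 h and 0.31 (SE of 0.21, adjusted p 0.203) at 12 h of E2F1, and 1.70 (SE of 0.21, adjusted p 1.1e-06) at 12 h of serum. Gse1, on the other strand, overlaps 67.3% of the exon bases of Gins2, so its counts are uncertain unless the counting used strand.

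Of the genes that process Okazaki fragments and RNA primers, Dna2, a nuclease and helicase that trims long flaps (ENSMUSG00000036875.15, chr10:62947026-62974185, forward strand), had the largest change of all 39 in the E2F1 line. Dna2 had 224 and 193 normalized counts at 0 h of the E2F1 line, 511 and 489 at 2 h, 5898 and 5978 at 6 h, and 5854 and 5467 at 12 h. Dna2 in the EV line had 114 and 157 at 0 h, and 211 and 145, 74 and 139, and 66 and 49 after 2, 6 and 12 h of doxycycline. With serum, Dna2 had 54 and 103 at 2 h, 86 and 51 at 6 h and 974 and 759 at 12 h. The E2F1 libraries do not overlap between 0, 2 and 6 h, the 6 and 12 h libraries are close, and the 12 h serum libraries reach well above the other EV values but far under those of E2F1. Dna2 rose 28.4-fold at 6 h, or 4.83 (SE of 0.32, adjusted p 7.9e-10) on the log2 scale, and by 4.76 (SE of 0.32, adjusted p 1.06e-09) at 12 h. At 2 h its change was 1.26 (SE of 0.32, adjusted p 0.0498). This 2 h call was lost on leaving out any of the 4 libraries, with equal totals, with the replicate block and among genes with a mean of at least 500 (adjusted p between 0.00093 and 0.354 over all alternatives), and the difference from the EV doxycycline change at 2 h was 0.88 (adjusted p 0.692). With 12 h of serum Dna2 rose by 2.67 (SE of 0.32, adjusted p 8.78e-07).

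Lig1, the ligase that joins Okazaki fragments, rose by 1.75 and 1.82 at 6 and 12 h of E2F1, fell by 1.27 at 6 h of serum and rose by 1.93 at 12 h. Fen1 is the flap endonuclease that cuts primer ends (ENSMUSG00000024742.15, chr19:10199132-10204169, reverse strand). Fen1 had 104 and 79 normalized counts at 0 h of the E2F1 line, 108 and 113 at 2 h, 398 and 297 at 6 h, and 423 and 460 at 12 h. Fen1 in the EV line had 43 and 121 at 0 h, and 91 and 55, 34 and 63, and 37 and 42 after 2, 6 and 12 h of doxycycline. With serum, Fen1 had 83 and 106 at 2 h, 103 and 117 at 6 h and 413 and 423 at 12 h. The E2F1 6 and 12 h libraries lie above those at 0 and 2 h, and the wide EV 0 h pair covers most other EV values. Fen1 changed by 1.91 (SE of 0.39, adjusted p 0.000501) at 6 h and 2.27 (SE of 0.39, adjusted p 6.19e-05) at 12 h of E2F1, and by 2.52 (SE of 0.39, adjusted p 1.8e-05) at 12 h of serum. Tmem258 and Gm10143 on the other strand overlap 84.2% of its exon bases, so its level may be miscounted if strand was not used. The RNase H2 complex, which removes ribonucleotides from DNA, rose less: at 6 h of E2F1 its catalytic subunit Rnaseh2a rose by 0.60 and its partner Rnaseh2b by 0.43, while Rnaseh2c was at 0.14 (adjusted p 0.392). At 12 h of E2F1 they rose by 0.47, 1.10 and 0.85. Rnaseh2c rose least of the members at 12 h of serum (0.32, adjusted p 0.0473), a call that was lost with quantile normalization, with equal totals and on leaving out a library (adjusted p up to 0.359). Kat5 on the other strand overlaps 24.8% of its exon bases.

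RPA, the 3-part complex that coats single-stranded DNA, rose at 6 and 12 h of E2F1 in all its subunits. Rpa2 (ENSMUSG00000028884.14, chr4:132768332-132778752, forward strand) is its middle subunit. Rpa2 had 735 and 502 normalized counts at 0 h of the E2F1 line, 787 and 845 at 2 h, 1898 and 1943 at 6 h, and 1712 and 1747 at 12 h. Rpa2 in the EV line had 369 and 403 at 0 h, and 552 and 456, 241 and 350, and 238 and 277 after 2, 6 and 12 h of doxycycline. With serum, Rpa2 had 407 and 335 at 2 h, 494 and 555 at 6 h and 2585 and 2426 at 12 h. The E2F1 12 h libraries lie below those at 6 h, and the 12 h serum libraries lie above both. Rpa2 changed by 1.66 (SE of 0.18, adjusted p 4.43e-07) at 6 h and 1.51 (SE of 0.18, adjusted p 1e-06) at 12 h of E2F1, and by 2.70 (SE of 0.18, adjusted p 7.57e-10) at 12 h of serum. Rpa1, the large subunit, rose by 1.17 and 1.29 with E2F1 and by 0.57, 0.87 and 2.08 at 2, 6 and 12 h of serum. Rpa3, the small subunit, rose by 0.68 and 1.31 with E2F1, and with serum it fell by 0.43 and 0.54 before it rose by 0.63. Rtel1, a helicase that resolves structures ahead of the fork and at telomeres, rose by 0.46 and 1.45.

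Top2a, the topoisomerase that untangles replicated DNA and peaks late in the cell cycle (ENSMUSG00000020914.17, chr11:98992943-99024189, reverse strand), rose late. Top2a had 12432 and 11640 normalized counts at 0 h of the E2F1 line, 10547 and 12278 at 2 h, 20623 and 16950 at 6 h, and 64589 and 63370 at 12 h. Top2a in the EV line had 6876 and 11514 at 0 h, and 7917 and 7265, 5599 and 8671, and 4299 and 5306 after 2, 6 and 12 h of doxycycline. With serum, Top2a had 7543 and 5281 at 2 h, 5444 and 9055 at 6 h and 23081 and 18575 at 12 h. The E2F1 12 h libraries hold by far the highest values of any group, far above those of 12 h of serum. Its change was 0.64 (SE of 0.25, adjusted p 0.039) at 6 h and 2.41 (SE of 0.25, adjusted p 1.72e-07) at 12 h of E2F1, and 1.22 (SE of 0.25, adjusted p 0.000312) at 12 h of serum. The call at 6 h was lost on leaving out 3 of the 4 libraries in turn (adjusted p up to 0.215), with equal totals, with quantile normalization and without both 2 h doxycycline groups.

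The step from 6 to 12 h of E2F1 split the members. Of the 39, 20 rose further and 0 fell (all genes: 15.1% and 20.2%), and 22 and 0 did so at an unadjusted p under 0.05. Top2a made the largest step (1.77, SE of 0.25, adjusted p 4.8e-05), followed by Pclaf (1.49, SE of 0.28, adjusted p 0.00053) and Chtf18 (1.05, SE of 0.20, adjusted p 0.000669). The 3 subunits of polymerase delta and both primase subunits also rose in this interval. Of the 36 members called at 6 h, 17 rose again and 19 did not pass the test for a further change. Leaving out 1 library could end the calls of Cdc45, Gins3, Pold1, Pole and Rfc4. The 19 included Dna2 (-0.07, 95% confidence interval -0.74 to 0.60), Wdhd1 (-0.33, 95% confidence interval -0.78 to 0.11), Pcna (0.11, 95% confidence interval -0.22 to 0.45), Lig1 (0.06, 95% confidence interval -0.27 to 0.40) and Rfc1 (0.09, 95% confidence interval -0.08 to 0.27). These 5 intervals exclude a further doubling, and for Gins2 the estimate was below 0 at -0.35 (95% confidence interval -0.79 to 0.08). With serum the same interval held most of the rise: 38 members rose and 0 fell from 6 to 12 h (all genes: 19.3% and 20.6%), with a median of 2.07. Pole4, at 0.12 (adjusted p 0.372), was the member that did not pass.

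**Figure D4:**
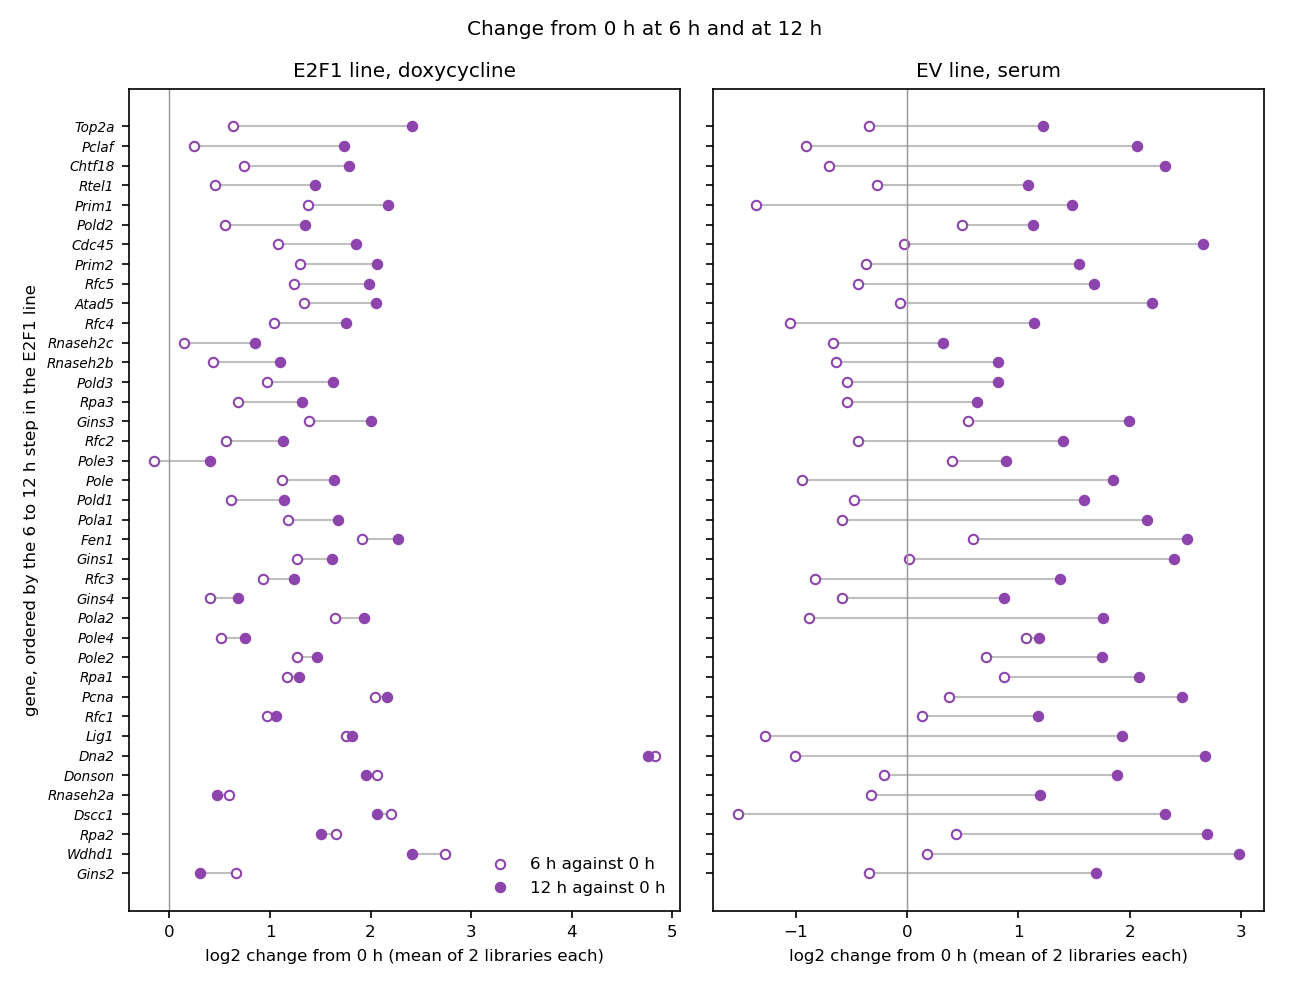
Log2 change from 0 h of each fork gene at 6 h (open) and 12 h (filled) in the E2F1 line (left) and in the EV line with serum (right), ordered by the 6 to 12 h step in the E2F1 line. On the left the open points already lie right of 0 for all genes but Pole3 and the step is largest for Top2a (1.77), while on the right most open points lie left of 0 and all filled points lie right of it.

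At 6 h the E2F1 and the serum responses were called in opposite directions for 19 members, and for 11 without EV 0 h replicate 2. The responses come from different lines, each with its own 0 h libraries. Of the 39, 19 members (48.7%) were called higher with E2F1 and lower with serum, where 6.09% of all genes were, while 7 (17.9%) were called higher in both, where 13.8% of all genes were. The 19 were 3 of 4 polymerase alpha-primase genes (Pola1, Pola2, Prim1), Pold1, Pold3, Pole, Rfc2 to Rfc5, Chtf18, Dscc1, Gins4, Lig1, Dna2, Rnaseh2a, Rnaseh2b, Rpa3 and Rtel1. Without EV 0 h replicate 2 the 11 that kept both calls were 28.2% of the members, against 5.08% of all genes in that fit, and Chtf18, Dna2, Pola1, Pold1, Rfc2, Rfc5, Rnaseh2a and Rtel1 lost the opposite calls. Without replicate 1 there were 22. The 7 were Pcna, Pold2, Pole2, Pole4, Gins3, Rpa1 and Rpa2, a count that was 8 without EV 0 h replicate 2, 3 without EV 0 h replicate 1 and 4 without serum 6 h replicate 2. The difference between the responses was tested for each gene: it was positive (E2F1 above serum) for 35 members and negative for 2 (all genes: 30.3% and 27.6%), with a median of 1.22. The largest were Dna2 at 5.83 (SE of 0.45, adjusted p 6.54e-09), Dscc1 at 3.72 (SE of 0.48, adjusted p 3.57e-06) and Lig1 at 3.03 (SE of 0.23, adjusted p 4.3e-09). The negative ones were Pole3 at -0.55 (SE of 0.12, adjusted p 0.00081) and Pole4 at -0.56 (SE of 0.14, adjusted p 0.00287). Pold2 (0.06, 95% confidence interval -0.36 to 0.49) and Rpa1 (0.30, 95% confidence interval -0.05 to 0.65) did not pass, and both intervals exclude a difference of 1 log2 unit. Without EV 0 h replicate 2 there were 28 positive calls, and the calls that leaving out 1 library could end were those of Cdc45, Fen1, Gins1, Gins2, Gins3, Pclaf, Pole2 and Top2a.

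**Figure D5:**
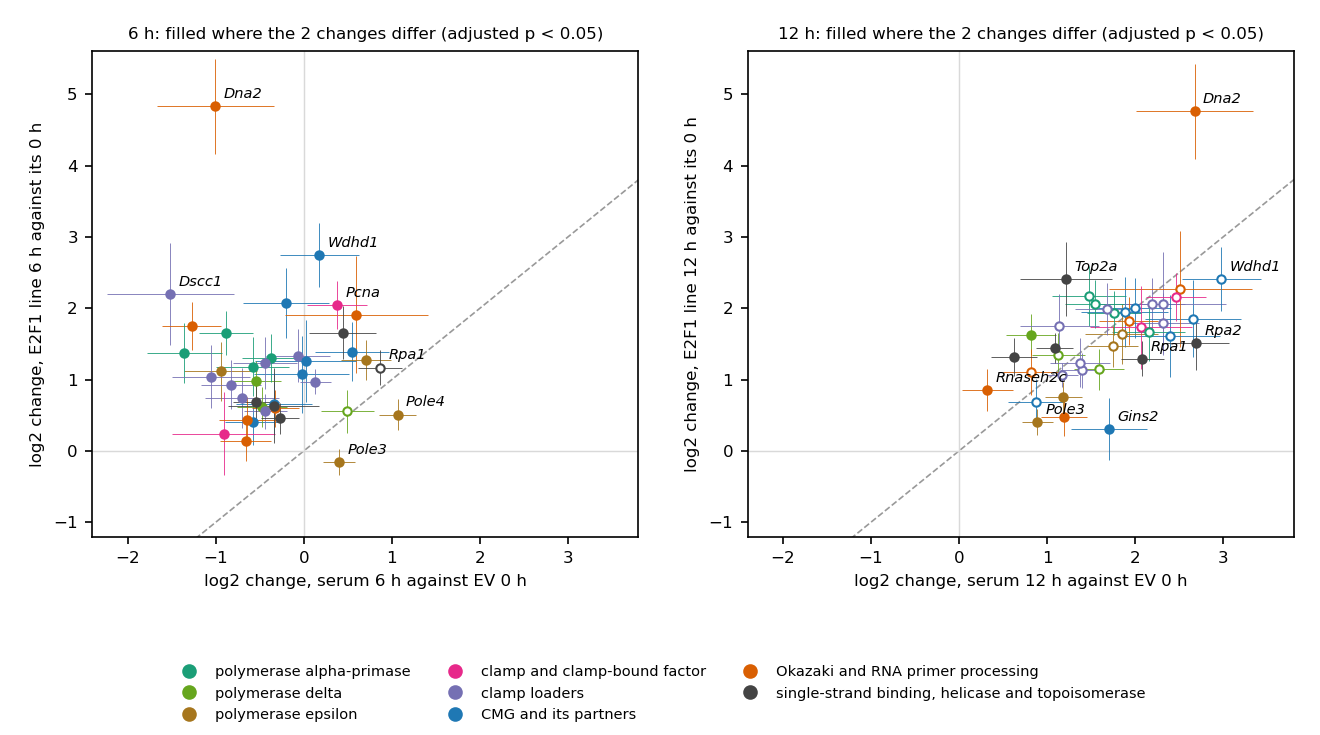
Log2 change with E2F1 (vertical) against log2 change with serum (horizontal) at 6 h (left) and 12 h (right), with bars for 95% confidence intervals, colours for roles, filled points where the changes differ and a dashed line of equal change. At 6 h 35 genes lie filled above the line, and at 12 h most points are open and near it, with Dna2 and Top2a above it and Gins2 and Rpa2 below it.

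At 12 h the responses were much closer, and the members that differed went both ways. The difference was positive for 6 members and negative for 6 (all genes: 25% and 23.8%), with a median of -0.18. E2F1 gave the larger rise for Dna2 (2.08, SE of 0.45, adjusted p 0.00092), Top2a (1.19, SE of 0.35, adjusted p 0.00891), Pold3 (0.82, adjusted p 0.00177), Rpa3 (0.69, adjusted p 0.00375), Rnaseh2c (0.53, adjusted p 0.0305) and Rtel1 (0.36, adjusted p 0.0463). Serum gave the larger rise for Gins2 (-1.39, SE of 0.29, adjusted p 0.000705), Rpa2 (-1.19, SE of 0.25, adjusted p 0.000816), Rpa1 (-0.79, adjusted p 0.000694), Rnaseh2a (-0.72, adjusted p 0.00274), Pole3 (-0.49, adjusted p 0.00298) and Pole4 (-0.43, adjusted p 0.0182). The subunits of RPA thus fell on both sides. These differences compare changes from each line's own 0 h, and the 12 h levels of Pole4 and Rpa1 overlapped. Pole4 had 2962 and 3104 with E2F1 and 3099 and 3092 with serum, and Rpa1 13343 and 13386 against 16551 and 13234. At 0 h both genes were higher in both E2F1 libraries than in both EV libraries. For the other negative members both 12 h serum libraries lay above both E2F1 libraries, and for the positive members below. No clamp, clamp loader or polymerase alpha-primase gene passed, for example Pcna at -0.30 (95% confidence interval -0.78 to 0.18), Rfc1 at -0.11 (95% confidence interval -0.36 to 0.13) and Pola1 at -0.48 (95% confidence interval -1.07 to 0.10). The counts depend on the EV 0 h libraries: 10 positive and 5 negative without replicate 1, and 3 and 13 without replicate 2. The calls of Top2a, Rnaseh2c, Rtel1 and Pole4 were lost in 1 or more of these fits, and those of Dna2, Gins2, Rpa1, Rpa2, Rpa3, Rnaseh2a, Pold3 and Pole3 held in all of them.

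Levels can be compared between genes only per exon length. In normalized counts per kilobase (means of 2 libraries), Pcna was at 1086 and Top2a at 1020 in the EV line at 0 h, against 23.1 for Dna2 and 28.8 for Dscc1. At 12 h of E2F1, Top2a reached 7099, Pcna 6765, Lig1 2615 and Dna2 963. The subunits of a complex stood at unequal levels: at E2F1 0 h the histone-fold subunit Pole3 had 1327 per kilobase and Pole4 718, while the catalytic subunit Pole had 130.0 and Pole2 135. At 12 h of E2F1 Pole was at 406 and Pole3 at 1758, so the ratio between them was smaller.

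Of 30 other fork and origin genes listed with the members, 29 were in the table. At 6 h of E2F1, 20 rose and 3 fell (all genes: 28.8% and 22.9%), and at 12 h 22 rose and 4 fell (all genes: 31.8% and 29.7%). At 12 h of serum 23 rose and 1 fell (all genes: 36% and 29.7%). In the EV line 14 fell at 12 h of doxycycline and 0 rose (all genes: 3.42% and 0.749%). How that count moves without 1 EV 0 h library was not examined. The median of the members in this comparison went from -0.63 to -0.37 without EV 0 h replicate 2. Mcm2 to Mcm7, the ring of the helicase, all rose at 6 h (median 1.22) and at 12 h (median 1.00) of E2F1. From 6 to 12 h none of the 6 was called higher, and Mcm6 (-0.61, SE of 0.15, adjusted p 0.0045) and Mcm2 (-0.36, SE of 0.11, adjusted p 0.0194) fell. At 12 h of serum their median rise was 2.21, and the difference between E2F1 and serum was negative for all 6 (median -1.38). That difference compares changes from each line's own 0 h, when all 6 were called higher in the E2F1 line (median 0.71). At 12 h both serum libraries lay above both E2F1 libraries for all 6. How the difference moves without 1 EV 0 h library was not examined. Clspn, a checkpoint mediator at the fork, rose by 2.81 (SE of 0.24, adjusted p 1.5e-08) at 12 h of E2F1, and Dbf4, the activator of the origin kinase Cdc7, by 2.59 (SE of 0.23, adjusted p 3.31e-08). Pold4, the smallest subunit of polymerase delta, fell by 0.56 at 6 h and 0.80 at 12 h of E2F1, against the rise of the other subunits.

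The authors' deposited table of 6 h of E2F1 against 0 h lists 5 members among 264 genes, and that of 12 h lists 10 among 510. Their table of 12 h of serum lists 14 among 726 genes. Each of these members is listed with a higher level, and the members are 39 of the 11208 genes of the main table. The authors' serum tables compare with a control named as serum 0 h, which may be another group than the EV 0 h libraries used above. In the authors' deposited tables Dna2 had a log2 fold change of 4.87 at 6 h and 4.77 at 12 h of E2F1 and 2.71 at 12 h of serum. Wdhd1 had 2.78, 2.42 and 3.01 in the authors' deposited tables of the same comparisons. No member is listed in the other 6 deposited tables, which hold only genes with a log2 change of about 2 or more in size.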

How the data were processed

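PolyA-selected RNA was read with 150 bp paired ends, per the labels' protocols. The submitters' processing notes name FastQC, Trimmomatic, HISAT2, featureCounts, DESeq2 and the genome build mm10, without roles. The main table holds normalized counts that the authors deposited rounded to whole numbers, so each value was treated as a score and not as a raw count. The scaling, the annotation release and the use of strand in counting are not given in the sources used here. Separate tables hold the authors' deposited log2 fold changes and their adjusted p-values, listed only for large changes.

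Groups came from the labels, and symbols and IDs from the table. The members, the other gene lists and the naming rule were chosen with earlier results of these data known. Values in every library are given for the 3 members with the largest change past the threshold in each of 6 comparisons, and for 11 genes fixed by role, 15 genes in all. limma 3.58.1 (R 4.3.3) was fitted to log2(value + 1) over 11 group means and all 22 libraries (11 residual degrees of freedom, eBayes with trend), for 18 comparisons. P-values were adjusted by Benjamini-Hochberg over all 11208 genes, with a threshold of 0.05, and all tests are two-sided. A filter of at least 10 in 2 libraries removed no gene. On data simulated for 12 h of E2F1 against 0 h over 11208 genes, 89 of 102 genes changed by 1 log2 unit and 95 of 98 changed by 1.5 were called, with 7 false calls. The simulation drew independent noise for each gene and changed no other genes. It held no shift shared by many genes of a library, so its false calls do not give the error rate in these data. Raw read depth was not estimated, and totals of normalized counts do not give it, so no counting intervals are given.

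Positions are those of GENCODE M21 (GRCm38, the build of mm10), in which 10977 of the 11208 IDs were found with the same version. Levels per kilobase use the union of exons. Promoters are RefSeq windows (GRCm38.p6). Where genes have several windows, a motif in any of them counts. A planned search of protein sequences was not run. The alternatives were another pseudocount (8), no filter, a mean of at least 500, quantile normalization, equal library totals, the replicate number as a block, a fit of only the groups compared, leaving out each library, and leaving out both 2 h doxycycline groups. Figures were drawn with matplotlib 3.10.9, and tables were made with scipy 1.17.1, numpy 2.4.6 and pandas 2.3.3 (python 3.11.15).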

Additional observations from a re-analysis of the deposited data

Results flagged for a closer look

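The doxycycline responses of the lines differed, by the interaction test in limma, for 35 of 39 fork genes at 6 h and for 39 at 12 h. For each of these called members the change from 0 h in the E2F1 line was above that in the EV line. At 6 h Pole3, which was not called, had a difference of -0.06. At 12 h the EV change, with a median of -0.63, is part of the difference, and it was -0.37 without EV 0 h replicate 2. The median difference at 12 h was 2.29, and 2.06 without that library. At 6 h, 19 members were called higher with E2F1 and lower with serum (48.7%, against 6.09% of all genes). That count rests in part on 1 control library: without EV 0 h replicate 2 it was 11 (28.2%, against 5.08% of all genes).

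At 12 h, 12 members differed between the E2F1 and the serum response by the same kind of test. The difference (E2F1 minus serum, log2) was positive for Dna2 (2.08), Top2a (1.19), Pold3 (0.82), Rpa3 (0.69), Rnaseh2c (0.53) and Rtel1 (0.36). It was negative for Gins2 (-1.39), Rpa2 (-1.19), Rpa1 (-0.79), Rnaseh2a (-0.72), Pole3 (-0.49) and Pole4 (-0.43). Members of 1 complex lay on both sides, as Rpa3 against Rpa1 and Rpa2, and Rnaseh2c against Rnaseh2a. The differences compare changes from each line's own 0 h, and for Pole4 and Rpa1 the 12 h levels themselves overlapped. Groups of 2 libraries are too small for a search for single outlying libraries, and none was made.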

How the results depend on the processing

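With 2 libraries a group, single libraries decide many calls at 0 h and 2 h and in the EV line, and the cause was not tested. Leaving out each library in turn used a fit that pools the spread, so the lone library is assumed to vary like the other groups. The counts of members then ran from 0 to 0 higher at 2 h of E2F1 (1 in the full fit). In the EV line with doxycycline they ran from 0 to 3 higher and 0 to 1 lower at 2 h, 0 to 3 lower at 6 h and 0 to 29 lower at 12 h. With serum they ran from 3 to 9 higher and 12 to 22 lower at 2 h, and from 4 to 9 higher and 12 to 24 lower at 6 h. Members called higher at 6 h of E2F1 and lower at 6 h of serum ran from 11 to 22, and those higher in both from 3 to 8. For E2F1 minus serum at 12 h they ran from 3 to 10 positive and 5 to 13 negative, and for the lines at 0 h from 1 to 17 higher. Pcna at 6 h of serum was at -0.0014 without EV 0 h replicate 1 and at 0.75 without EV 0 h replicate 2.

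Quantile normalization gave 2 members higher at 2 h of E2F1, 1 lower at 6 h of E2F1 (Pole3) and 1 lower at 2 h of doxycycline in the EV line, and turned Pole2 at 2 h of serum to 0.36. Equal totals gave 0 higher at 2 h of E2F1, 1 lower at 6 h of E2F1 (Pole3), 2 higher and 29 lower at 2 h of serum and 3 higher at 6 h of serum and 3 higher at 6 h of both, and turned Pole3 at 2 h of serum to -0.20. A fit of only the groups compared, which has fewer samples to estimate the spread, gave 4 higher at 2 h of E2F1, 0 higher at 2 h and 2 lower at 12 h of doxycycline in the EV line, 5 higher at 6 h of serum, 4 higher at 6 h of both, 2 higher between the lines at 0 h and 2 lower from 6 to 12 h of E2F1. A mean of at least 500, which leaves fewer genes, gave 0 higher at 2 h of E2F1.

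Samples with the same replicate number did not deviate together in most pairs of groups (correlations over 55 pairs of groups from -0.277 to 0.455, median 0.0314, 18 above 0.1), so the numbers were taken as names only. These correlations are over all genes. Most fork genes of the EV line were higher in replicate 2 at 0, 6 and 12 h of doxycycline, but not at 2 h. The replicate block is 1 term over all libraries and cannot take up a pairing within that course alone, which was not tested. With the replicate block, 0 members were higher at 2 h of E2F1 against 1 without it, and no other count of members moved by over 1.5 times. The joint counts under each alternative were added after seeing the data. Leaving out both 2 h doxycycline groups was also chosen after seeing the data and moved no count of members by over 1.5 times; the fall at 12 h of doxycycline in the EV line then held 17 members.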
